A study of Mus musculus with 2 samples.

Results

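Forkhead (Fox) genes encode transcription factors that bind DNA through a winged-helix domain, and they are named by a subfamily letter and a number. The 43 members described here are protein-coding genes whose symbol, looked up by Ensembl identifier, reads Fox, a letter from a to s and a number. They were taken from 43346 annotated genes, of which 21474 were protein-coding, and they fall into 18 subfamilies. The samples were 2 libraries of whole brain from C57BL/6J mouse embryos at embryonic day 14.5, numbered as biological replicates 1 and 2 and forming 1 group with no treatment, genotype or control to compare. Per the labels, embryos were mixed-sex littermates, and poly-A+ RNA over 200 nucleotides, depleted of rRNA and spiked with control RNA, was sequenced as stranded read pairs. The sources used here do not say which embryos were in each library, so the SD over the 2 libraries may be partly technical, and replicate 2 against replicate 1 is a description with no test.

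With 1 helix of the forkhead domain the protein reads bases in the major groove of DNA, and the domain's sequence is shared closely across the family. Some members act in patterning and lineage choice, such as Foxa2 in the floor plate and Foxc1 in the meninges. Others act in most cells, such as Foxm1, which drives genes of mitosis, Foxo proteins, which are held out of the nucleus by insulin signalling, and Foxk proteins, which are nuclear partners of chromatin complexes. Foxp proteins are repressors that dimerise through a leucine zipper and have known roles in striatal, cortical and motor neurons.

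The 36 coding bases of the DNA-contacting helix are shown first. They are part of the domain that defines the family, and an intron divides them in some members. The bases were read from the GENCODE vM21 transcript sequences (GRCm38, the mm10 build) of the highest coding transcript that held the helix, written 5′ to 3′ on the coding strand. Capitals mark bases that differ from Foxd3, and the members shown are the highest described of the leading subfamilies and the pair Foxd3 and Foxd4, which are identical here.
Foxd3: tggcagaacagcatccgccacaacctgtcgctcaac
Foxd4: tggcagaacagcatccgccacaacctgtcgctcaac
Foxp4: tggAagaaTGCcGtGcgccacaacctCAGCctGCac
Foxk2: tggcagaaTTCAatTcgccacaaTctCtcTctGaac
Foxj3: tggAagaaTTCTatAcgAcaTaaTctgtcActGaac
Foxo6: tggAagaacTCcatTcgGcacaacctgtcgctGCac
Foxm1: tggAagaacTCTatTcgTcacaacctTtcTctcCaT
Foxn3: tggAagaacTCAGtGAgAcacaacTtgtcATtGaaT

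The helix was searched for with a fixed amino-acid pattern, which 41 of the 43 members matched, all but Foxr1 and Foxr2. A missing match does not show that a member lacks the helix. Of the 36 bases, 10 were the same in all 41, in part because the pattern itself fixes some amino acids. Foxn3 differed from Foxd3 at 13 bases, Foxp4 at 12, Foxj3 at 11, Foxm1 at 10, Foxk2 at 9 and Foxo6 at 7, while Foxl1, like Foxd4, differed at none. Over the 39 pairs within a subfamily the median was 5.00 differing bases, against 9.00 over pairs from different subfamilies. In 14 members an intron cut the helix, in every one of them after base 6. These 14 were all the members of the Foxj, Foxk, Foxm, Foxo and Foxp subfamilies. In the other 27 members the helix lay within 1 exon. Foxd3 is one of these 27, with its helix on chromosome 4 at 99657147 to 99657182 on the plus strand, in its single exon. The Foxp4 helix runs from 47874640 down to 47871322 on the minus strand of chromosome 17, in exons 13 and 14 of 17. The Foxk2 helix runs from 121290885 to 121296058 on the plus strand of chromosome 11, in exons 4 and 5 of 9.

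Level in the brain went with this division. Of the 14 members with a cut helix, 10 had a mean of 10 TPM or more (a level scaled by transcript length and depth), against 1 of the 27 others. The median of the mean TPM was 21.9 in the first group and 0.980 in the second. The 4 members with a cut helix below 10 TPM were Foxo3, Foxj2, Foxo1 and Foxp3, and the member with an uncut helix above it was Foxn3. Members of a subfamily are related in sequence and do not count as independent, so these are counts and not a test. Genes without any intron, whose helix cannot be cut, were low as well. On mm9, 11 of 42 members had 1 exon, none of them reached 10 TPM, and the highest, Foxq1, had a mean of 8.07 TPM. The median was 1.79 TPM for these 11 and 6.86 TPM for the 31 members with introns. The 31 include all 14 members with a cut helix, so this contrast is not separate from the first.

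The libraries held 107938353 and 101105391 estimated counts, of which the described Fox genes took 95669 in replicate 1 and 97473 in replicate 2, or 0.0924% and 0.0999% of the counts on annotated genes. A count of 0 allows a share of up to 2.90e-06% and 3.08e-06%, on 3 counts and for counting error only. Markers of brain were high, with all 12 listed genes detected and Tubb3, a neuronal tubulin, at 2753 and 2640 TPM. Libraries differed in regional markers: 17 of 17 telencephalon genes were lower in replicate 2, and 13 of 13 spinal cord and hindbrain genes were higher. Epidermal genes were also present and uneven in both directions, with Krtdap at 25.5 and 4.22 TPM and Krt5 at 25.5 and 37.8 TPM. Mitochondrial transcripts made up 8.49% and 12.2% of TPM.

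A member was called detected at 1 TPM or more in both libraries. This held for 26 of the 43 members (60.5%), beside 62.2% of all protein-coding genes. Just 11 members (25.6%) reached a mean of 10 TPM, beside 43.0% of protein-coding genes, and the median of the members' mean TPM was 3.97 against 5.78. Fox genes were thus detected about as often as other protein-coding genes, and fewer of them reached high levels. In bulk tissue, fewer cells that express a gene and less RNA per cell cannot be told apart.

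**Figure D1:**
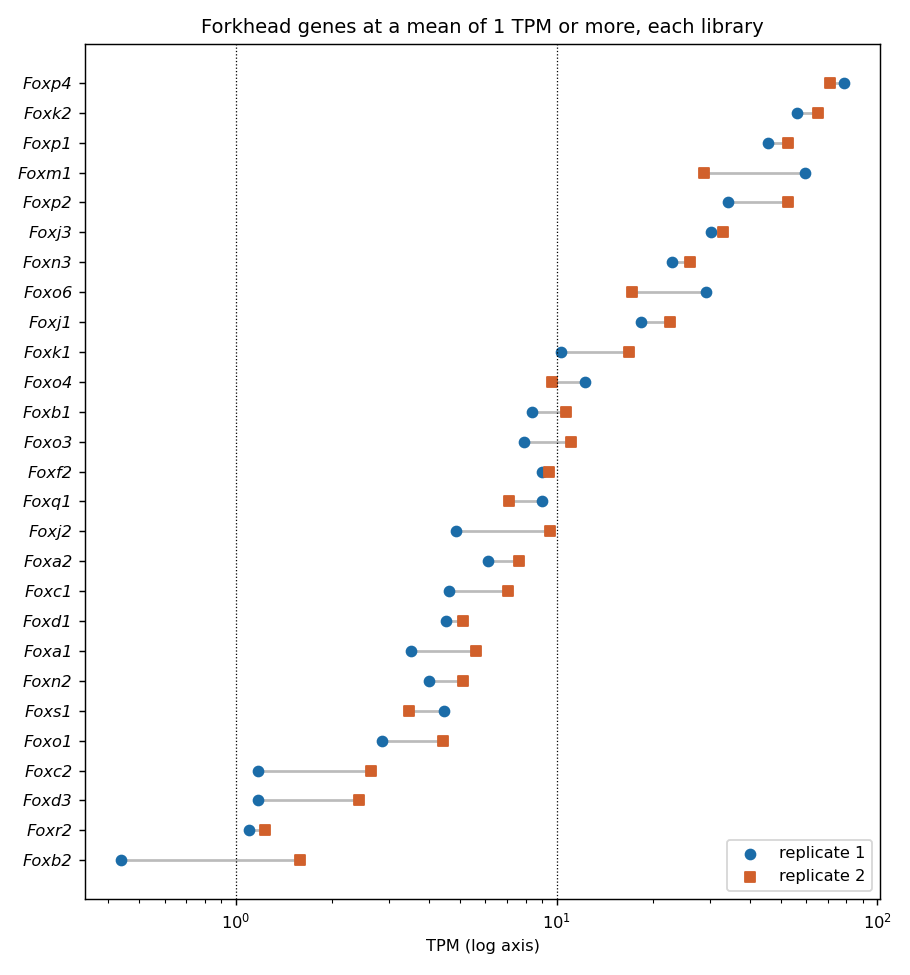
Level of each of the 27 forkhead genes with a mean of 1 TPM or more, as TPM on a log axis, with a circle for replicate 1 and a square for replicate 2. Foxm1 has the widest gap among the genes above 10 TPM, and dotted lines stand at 1 and 10 TPM.

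Foxp was the highest subfamily in both libraries, with summed levels of 159 and 176 TPM. That was 33.5% and 35.7% of the total over the described members. Foxp4 (chromosome 17, 47867133 to 47924645), a repressor of the developing gut, lung and nervous system, stood at 78.67 and 71.35 TPM, or 75.0 ± 5.18 TPM (SD, n = 2). Foxp1 (chromosome 6, 98925338 to 99522721), which acts in striatal and motor neurons, stood at 45.74 and 52.47 TPM. Foxp2 (chromosome 6, 14901349 to 15441977), known for its part in vocal motor circuits, stood at 34.15 and 52.48 TPM. By gene TPM Foxp4 was thus the highest of the subfamily in both libraries, and Foxp1 and Foxp2 overlapped in their ranges. Over protein-coding transcripts alone Foxp2 was above Foxp4 in replicate 2, at 49.5 against 47.7 TPM. Foxp2 was 1.54-fold higher in replicate 2, while Foxp1 and Foxp4 differed by less. The remaining member, Foxp3, the regulator of regulatory T cells, had 0.05 TPM in each library, from 12 and 10 counts. Of the 7 listed regulatory T cell genes, Cd3e was at 0 and Ikzf2 alone passed a mean of 1 TPM, at 1.88 and 2.51 TPM.

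Foxk, next by its mean among the subfamilies described, summed to 66.6 and 82.1 TPM. Foxk2 (chromosome 11, 121259990 to 121309896) carried most of it, at 56.25 and 65.28 TPM. Foxk1 (chromosome 5, 142401497 to 142462011), its paralog and like it a repressor of autophagy genes, was lower at 10.32 and 16.82 TPM. Foxk2 was above Foxk1 in both libraries. Foxm1 (chromosome 6, 128362967 to 128376146), the driver of G2 and mitosis genes in dividing cells, stood at 59.54 and 28.89 TPM. It had rank 2 among the described members in replicate 1 and rank 6 in replicate 2.

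Foxj members have unlike roles. Foxj3 (chromosome 4, 119537004 to 119629119), which is known for work in muscle and germ cells, had 30.27 and 32.95 TPM. Foxj1 (chromosome 11, 116330704 to 116335399), the master regulator of motile cilia in ependyma and choroid plexus, had 18.39 and 22.55 TPM. Foxj2 was lower, at 4.85 and 9.55 TPM. All 3 were higher in replicate 2 by TPM, Foxj3 by 1.09-fold and Foxj2 by 1.97-fold, while Foxj3 was slightly lower there by its counts, at a ratio of 0.98.

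Foxo members, the insulin-regulated factors of stress and quiescence, summed to 52.3 and 42.5 TPM. Foxo6 (chromosome 4, 120267079 to 120287349), the member most restricted to the nervous system, led with 29.29 and 17.23 TPM. Foxo4 (chromosome X, 101254528 to 101260873) had 12.24 and 9.68 TPM, Foxo3 had 7.89 and 11.12 TPM, and Foxo1 had 2.86 and 4.42 TPM. Foxo6 and Foxo4 were lower in replicate 2, while Foxo3 and Foxo1 were higher. Foxo6 was highest in both libraries and Foxo1 lowest. Foxn3 (chromosome 12, 99190078 to 99563582), a repressor linked to the DNA damage checkpoint, had 22.86 and 25.97 TPM, and it made up 83.3% and 81.3% of the Foxn sum. Its relatives were Foxn2 at 4.01 and 5.10 TPM, Foxn4, a factor of retinal and spinal interneurons, at 0.56 and 0.86 TPM, and Foxn1, the thymus and hair follicle factor, at 0.02 TPM in each.

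**Figure D2:**
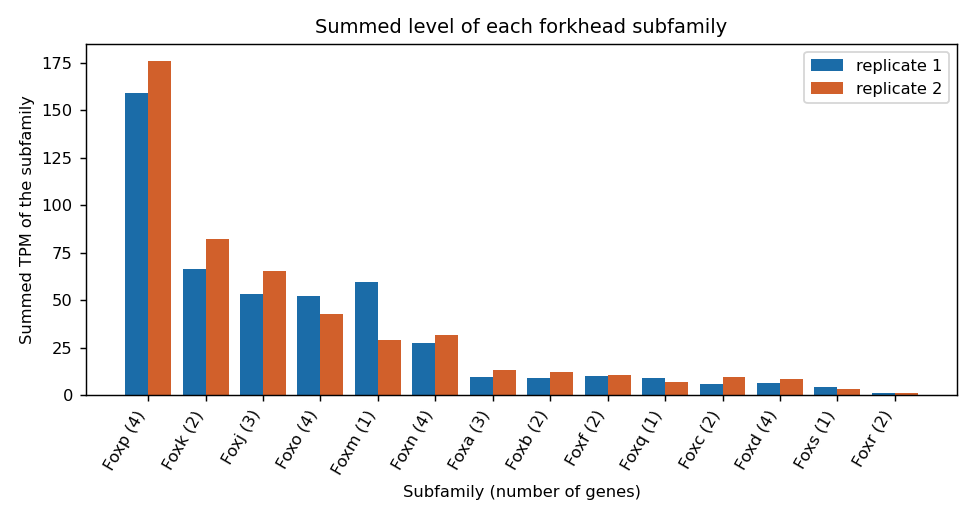
Summed TPM of the 14 forkhead subfamilies with a mean sum of 1 TPM or more, one bar for each library, with the number of genes in brackets. Foxp is the tallest in both libraries, at 159 and 176 TPM, and the Foxm bars are the ones with the widest gap between the libraries in relative terms.

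Between 1 and 10 TPM lay 16 members, most of them regional or mesenchymal factors. Foxb1, of the mammillary region and hindbrain, had 8.40 and 10.72 TPM, and Foxb2 had 0.44 and 1.59 TPM. Foxa2 and Foxa1, which specify the floor plate and midbrain dopamine neurons, had 6.10 and 7.62 TPM and 3.52 and 5.61 TPM. The remaining member, Foxa3, a factor of liver and gut, had 0 counts in both. All 4 of the Foxa and Foxb genes that were measured above 0 were higher in replicate 2. Of the 14 floor plate and dopamine genes listed, 13 passed a mean of 1 TPM. By any amount 9 of them were higher in replicate 2, and Spon1 and Lmx1b were 2-fold higher there. The other 4 were lower, among them Slc18a2 (29.1 and 18.4 TPM), the third highest of the list. This lean depended on scaling. By FPKM, or by counts scaled with edgeR's TMM or DESeq2's size factors, 7 were higher and 6 lower. With TPM rescaled without mitochondrial and spike-in rows, 10 were higher and 3 lower.

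Foxf2, Foxq1 and Foxc1 lie in a row on chromosome 13, with Foxq1 and Foxf2 64.8 kb apart and Foxf2 and Foxc1 175 kb apart. Foxf2, of brain pericytes, had 9.01 and 9.48 TPM. Foxq1, known in brain endothelium and in hair and gut epithelium, had 9.02 and 7.13 TPM. Foxc1, of meninges and pericytes, had 4.63 and 7.08 TPM. These 3 neighbours had levels within a factor of about 2 of each other in each library. A second row on chromosome 8 was lower: Foxf1 had 0.98 TPM in each library, Foxc2, 28.0 kb away, had 1.17 and 2.64 TPM, and Foxl1, another 9.04 kb on, had 0.16 and 0.28 TPM. Foxd1, of kidney stroma and retina, had 4.52 and 5.12 TPM, Foxd3, which marks neural crest, had 1.17 and 2.42 TPM, Foxs1 had 4.47 and 3.47 TPM, and Foxr2 had 1.10 and 1.23 TPM.

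The remaining 16 members had a mean below 1 TPM. Foxa3, Foxi1 and Foxr1 had no count in either library, and Foxi2 had 0 and 2. Of the others, Foxd2 (0.78 and 0.82 TPM), Foxn4 and Foxf1 were closest to 1 TPM, and Foxl2, the ovary and eyelid factor, had 0.20 and 0.55 TPM. The lens factor Foxe3 had 0.16 and 0.07 TPM, and the thyroid factor Foxe1 had 0.01 and 0.03 TPM. The otic and placodal factor Foxi3 had 0.06 and 0.38 TPM, from 4 and 24 counts. Foxh1, the nodal signalling partner of gastrulation, had 0.07 and 0.12 TPM, and Foxd4 had 0.10 and 0.32 TPM. The lowest of these levels lie at the edge of detection, such as that of Foxe1, which rested on 1 and 4 counts. Foxf1, near 1 TPM, rested on 147 and 133.

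Opposite-strand RNAs were measured beside 3 members. Foxl2os had 2.72 and 3.13 TPM, above Foxl2 itself, Foxd2os had 0.730 and 0.610 TPM, and Foxo6os had 0.0800 and 0.0700 TPM. Foxd2 and Foxd2os were thus of like level, and Foxo6 was far above Foxo6os. Per the labels the libraries are stranded, but the sources used here do not say whether counting used strand, so reads of such pairs may not be fully separated.

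The order of the members was alike in both libraries (Spearman's rho 0.964 over the 27 genes whose mean reached 1 TPM, as a description across genes). Of the 26 neighbouring pairs in that order, 6 had ranges over the 2 libraries that did not overlap. These were Foxp4 over Foxk2, Foxk2 over Foxp1, Foxp2 over Foxj3, Foxj3 over Foxn3, Foxj1 over Foxk1 and Foxo1 over Foxc2. The other 20 neighbours could not be ordered beyond the spread of the libraries.

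Between the libraries, a difference was described as log2 of the ratio of TPM + 1, replicate 2 over replicate 1, and called at 2-fold or more among genes whose mean reached 1 TPM. This scale understates the change of low genes. Foxm1 was called lower in replicate 2, and none of the 27 members was called higher. Over all 15240 genes at this level, 1.14% were called lower and 2.39% higher. Foxm1 was at -1.02 on the log2 scale. The ratio of its counts, scaled by library total, was 0.49, with an exact conditional binomial 95% interval of 0.47 to 0.50 that covers counting error only. It was not called when TPM was rescaled without mitochondrial and spike-in rows, at -0.95. Foxo6 was at -0.73, and the other 4 members that were lower, Foxo4, Foxq1, Foxs1 and Foxp4, lay between -0.31 and -0.14.

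By any amount, 21 of the 27 members were higher in replicate 2 (77.8%), beside 51.0% of all genes at that level. The median log2 ratio was 0.28 for the members and 0.01 for all genes, and the median size of the difference was 0.31 against 0.27. Scaling counts with edgeR's TMM or DESeq2's size factors gave 20 higher and 7 lower, with Foxj3 on the other side. On the TPM itself Foxb2 was 3.61-fold higher in replicate 2, Foxc2 2.26-fold, Foxd3 2.07-fold and Foxj2 1.97-fold. All of these were low genes, and only Foxb2, from 39 and 127 counts, and Foxc2, from 201 and 407, passed the 2-fold call with a pseudocount of 0.1. With that pseudocount 4.17% of all genes were called higher and 1.71% lower, and Foxm1 was the member called lower as before.

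**Figure D3:**
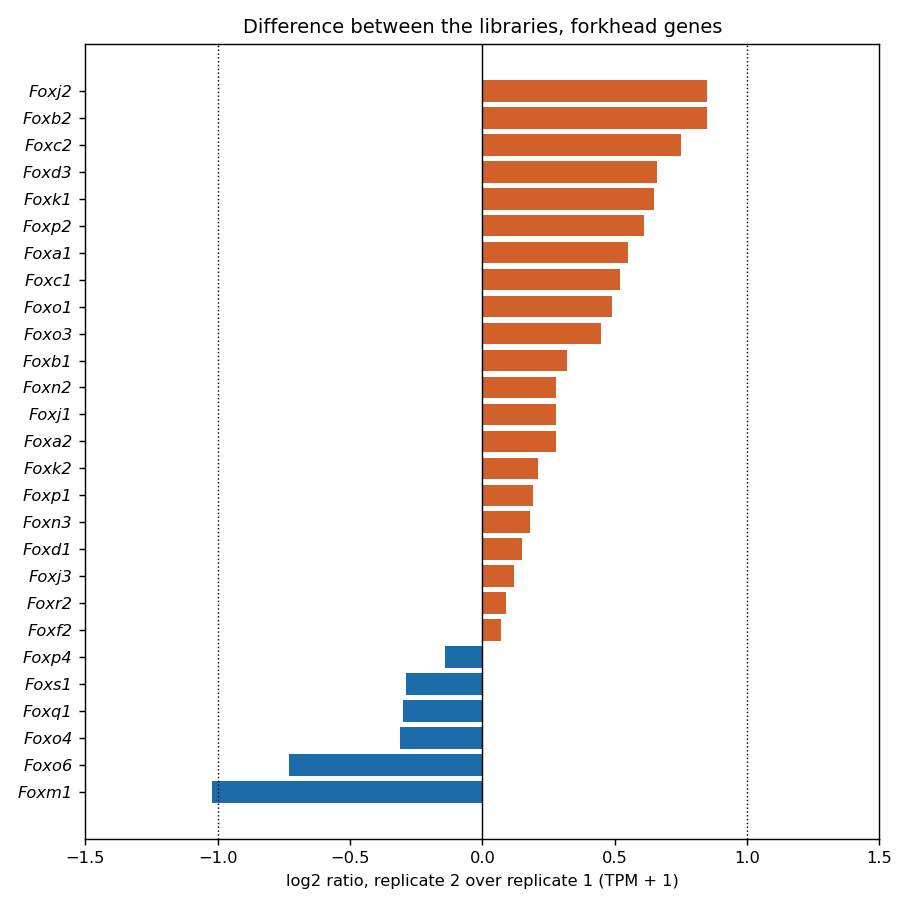
Log2 ratio of TPM + 1, replicate 2 over replicate 1, for the 27 forkhead genes with a mean of 1 TPM or more, as 1 bar a gene. Dotted lines mark 2-fold in each direction, of which Foxm1 passes the lower one at -1.02.

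Genes that work with members, or mark the cells known to hold them, were compared with the same ratio in lists chosen for their known roles. Regional patterning genes came first: all 17 telencephalon genes were lower in replicate 2, with a median of -0.89, and 7 were 2-fold lower. Among those 7 were the interneuron gene Dlx1 (220 and 71.2 TPM), Nkx2-1, the cortical progenitor gene Neurog2 (82.1 and 35.0 TPM), Eomes, Fezf2 (59.0 and 11.4 TPM) and Emx1 (57.4 and 10.6 TPM). Lhx2, the highest of the list, stood at 227 and 122 TPM. Foxm1, at -1.02, differed by less than Emx1 and Fezf2. In the opposite direction, 13 of 13 spinal cord and hindbrain genes were higher in replicate 2, with a median of 1.04, and 7 were 2-fold higher, led by Hoxa5 (4.10 and 35.8 TPM) and Hoxb3 (3.82 and 31.8 TPM). The libraries thus differed in regional markers in both directions, and the part of tissue composition in the differences of the Fox genes was not tested.

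For Foxm1, 20 of 21 listed cell cycle genes, which are targets or partners of it, were lower in replicate 2 (19 to 21 under other scalings). The median was -0.73. Called 2-fold lower were Ube2c (167 and 71.5 TPM), Cdc20 (89.1 and 41.4 TPM) and Ccnb1 (84.7 and 36.9 TPM), which drive the passage through mitosis, and Cenpa, Aurkb and Birc5, which act at the centromere. That was 6 of 21, and 4 of 21 when TPM was rescaled. The summed level of the list was 850 and 450 TPM. Foxm1 and 20 of these 21 genes were thus lower in the same library, and the part of the share of dividing cells in that difference was not tested.

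For Foxo genes, 25 of 26 listed targets and regulators passed a mean of 1 TPM, none was called, 17 were higher in replicate 2 and the median was 0.17. The highest were the 14-3-3 genes Ywhae (824 and 944 TPM) and Ywhaz (262 and 343 TPM), whose proteins hold Foxo in the cytoplasm, and the kinase Akt1 (252 and 243 TPM). For Foxp genes, none of the 16 listed partners and corepressors was called, and 8 were higher and 8 lower. The highest were Nr2f1 (507 and 347 TPM), the corepressor Ctbp1 (271 and 265 TPM) and the deacetylase Hdac2 (105 and 142 TPM). For Foxk genes, none of the 11 partners measured was called, 5 were higher and 6 lower, and Ogt led with 393 and 258 TPM, before Dvl1 and Sin3b. Under other settings 2 genes of these 3 lists were called. Pik3r1, of the Foxo list, was called higher with a pseudocount of 0.1 or rescaled TPM, and Tbr1, of the Foxp list, was called lower with TMM or DESeq2 scaling.

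Cells known to hold members of lower level were marked as well. Of the motile cilia genes that go with Foxj1, 11 of 15 passed a mean of 1 TPM, 9 were higher in replicate 2 and 1, Rsph1 (0.50 and 2.55 TPM), was called, a call lost by FPKM, with TMM or DESeq2 scaling and at a minimum mean of 5 TPM. Of the choroid plexus and ependyma genes, all 8 tested were higher, with a median of 0.54, led by Ttr (994 and 1336 TPM), the thyroid hormone carrier. For Foxc and Foxf genes, 10 of 12 meninges and head mesenchyme genes were higher in replicate 2, and Col1a1 (36.5 and 146 TPM) and Col1a2 (56.5 and 143 TPM) were called. All 9 pericyte and smooth muscle genes tested were higher, or 8 of 9 by FPKM or scaled counts, with a median of 0.45. For Foxd3, 5 of 11 neural crest and sensory ganglion genes were called higher, among them Ngfr, Prph (11.2 and 35.1 TPM) and Ret. Among endothelial genes 7 of 12 were higher and none was called. Foxc1, Foxc2, Foxd3 and Foxj1 were higher in the same library as these markers. Foxf1 was even at 0.98 TPM, Foxf2 differed little (9.01 and 9.48 TPM, with a count ratio of 1.00), and Foxs1 and Foxq1 were lower there. The part of those cells in the differences was not tested.

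The other lists added few called genes. In thalamus and caudal hypothalamus, 7 of 10 were higher and Lhx5 was called. Among striatal and deep-layer neuron genes, which are known to carry Foxp1, Foxp2 or Foxp4, 6 were higher and 7 lower, with Penk called higher (14.1 and 38.9 TPM) and Ppp1r1b called lower (15.1 and 5.27 TPM). The kidney and otic genes Pax8 and Gjb2 were called higher, Gjb2 at 1.01 and not by FPKM or scaled counts. In the skin list 5 of 8 genes were higher in replicate 2, with a median of 0.08, while Krtdap and Krt10 were called lower. Of the 14 lens and pituitary genes 4 passed a mean of 1 TPM, namely Pomc (4.81 and 3.48 TPM), Cryab (3.38 and 3.23 TPM), Lhx3 and Crybb1, while Gh and Prl were at 0. Of the endoderm and airway genes Scgb1a1, Cdx2 and Pdx1 were at 0. Sox17 (20.1 and 15.2 TPM), which is also on the endothelium list, and Afp (5.18 and 2.83 TPM) passed a mean of 1 TPM.

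**Figure D4:**
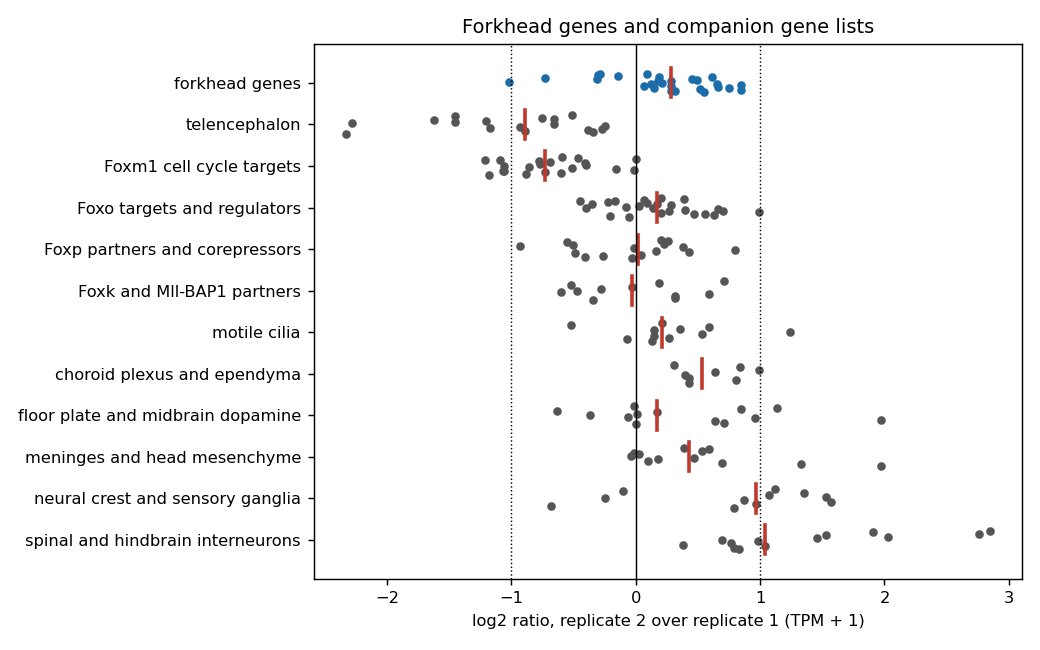
Log2 ratio of TPM + 1, replicate 2 over replicate 1, for the forkhead genes and 11 companion lists, 1 point a gene with a mean of 1 TPM or more, with a red bar at each median. The telencephalon and Foxm1 cell cycle lists lie to the left at -0.89 and -0.73, and the spinal list to the right at 1.04.

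Transcripts added detail to the gene levels. Of the members, 26 had 1 transcript as deposited, and Foxp1 had 32. Of the 13 members with 2 or more transcripts and a gene mean of 1 TPM or more, 2 (15.4%), Foxa2 and Foxj3, had another leading transcript in replicate 2, beside 9.29% of 10408 such genes. At a gene mean of 10 TPM it was 1 of 8 members, beside 8.18% of genes. In Foxj3 the lead passed from Foxj3-202 (47.2% and 34.6% of the gene's TPM) to Foxj3-201 (46.8% and 52.8%), which were near even in replicate 1. The 2 Foxa2 transcripts, Foxa2-204 at 41.9% and 38.9% and Foxa2-202 at 40.1% and 48.1%, were likewise close. By counts neither lead changed: Foxj3-201 led Foxj3 with 49.9% and 59.5%, and Foxa2-202 led Foxa2 with 64.4% and 71.2%, against 23.5% and 20.3% for Foxa2-204.

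Foxp2 shares differed more between the libraries than those of Foxk2, where Foxk2-201 took 72.7% and 75.0%. The leading transcript of Foxp2, Foxp2-207, took 48.2% and 38.8% of the gene's TPM, while Foxp2-201 took 6.12% and 15.7%, from 777 and 2754 counts. Foxp2-202, a transcript of 1293 nt, took 27.3% and 26.7%. In Foxo4 the main transcript took 55.4% and 71.4%, and in Foxj2 57.7% and 71.4%. For Foxp1, Foxp1-225 took 22.6% and 24.4% and Foxp1-204 20.2% and 23.4%, so that no transcript held most of the gene's TPM. By counts Foxp1-204 did, at 57.8% and 61.3% of the gene, against 15.2% and 15.1% for the shorter Foxp1-225.

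Short transcripts weighed heavily on TPM. In Foxp4, Foxp4-208, a retained-intron transcript of 365 nt, took 30.8% and 27.3% of the gene's TPM but 2.12% and 1.90% of its counts. In Foxk2, the 607-nt retained-intron transcript Foxk2-202 took 25.8% and 24.5% of TPM and 2.78% and 2.63% of counts. In Foxm1, Foxm1-206 and Foxm1-205, also retained introns, took 18.6% and 14.9% of TPM in replicate 1, from 4.22% and 1.35% of its counts. In Foxn3 the leading transcript, Foxn3-205 of 566 nt, took 51.9% and 45.3% of TPM and 13.4% and 11.2% of counts. Over protein-coding transcripts alone, Foxp4 stood at 49.8 and 47.7 TPM, Foxk2 at 40.9 and 49.0 TPM, Foxp1 at 34.1 and 40.9 TPM, Foxp2 at 33.4 and 49.5 TPM and Foxm1 at 36.5 and 18.9 TPM. On that measure Foxp4 led in replicate 1 and Foxp2 in replicate 2 among these 5, and Foxp4 overlapped with Foxk2 and Foxp2, while it did not on the gene TPM.

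**Figure D5:**
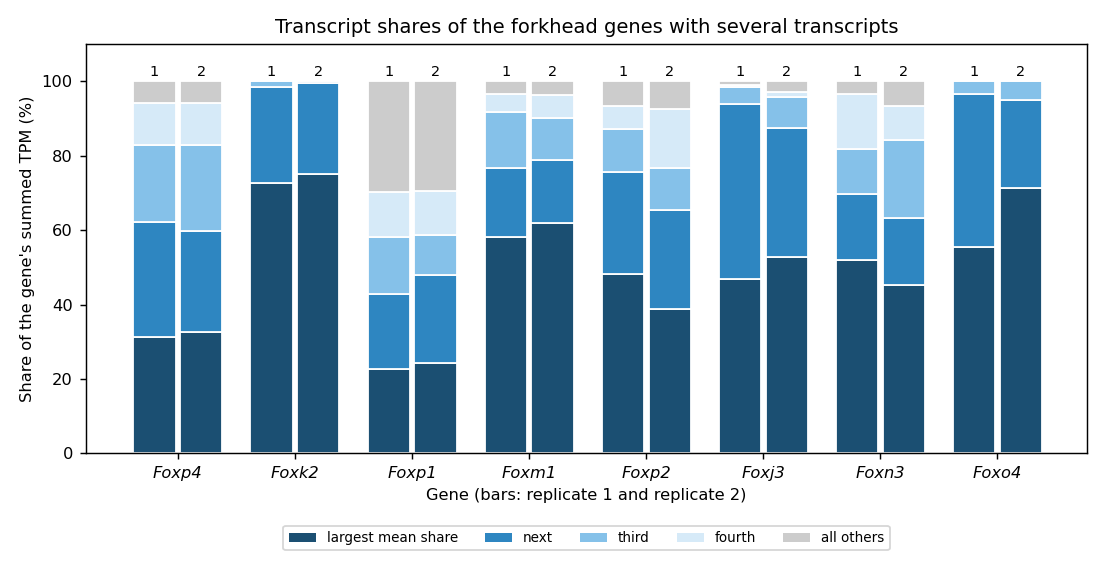
Share of each gene's summed TPM held by its transcripts, for 8 forkhead genes with a mean of 10 TPM or more and several transcripts, with the left bar for replicate 1 and the right bar for replicate 2. The main part of Foxk2 is alike at 72.7% and 75.0%, while that of Foxp2 is 48.2% and 38.8%.

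Reads across introns, which the authors deposited as sums over both libraries on mm9, gave another view of the same libraries. Of 31 members with introns in the mm9 exon table, 27 had reads across at least 1 of them. Foxp4 had 18026 such reads over 18 of its 21 introns, Foxp2 10242 over 23 of 35, Foxk2 9601, Foxp1 8601 and Foxj3 7711. Reads crossed even long introns, with 142 over the 81.7 kb longest intron of Foxn3 and 105 over the 75.6 kb intron of Foxo1, but 0 over the 183 kb longest annotated intron of Foxp2. Foxa3, Foxb2, Foxi1 and Foxr1 had none. The deposited mm9 gene values, 2 columns of RPKM (a level scaled by gene length and depth) that were not tied to a library, were 2.96 and 6.73 for Foxm1, 10.1 and 10.2 for Foxk2 and 6.59 and 8.28 for Foxp4. Foxm1 was uneven between the 2 columns, and Foxk2 was even. These columns are another processing of the same libraries and not independent support for the Foxm1 difference.

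Promoter sequence was taken from the RefSeq promoter table (GRCm38.p6), as the 250 bases before a gene's start. It matched 28 members, 3 of them with several starts, and the first start in the table's order was used for members and for all genes alike. Some starts lie inside the gene as GENCODE draws it, such as that of Foxn3. The ratio of observed to expected CG pairs was 0.6 or more in 11 of 16 members with a mean of 1 TPM or more and in 8 of 12 members below it. Foxa2 and Foxp1 passed with another of their starts, at 0.73 and 1.12, which would make it 13 of 16, and Foxp3 passed with its first start, at 0.68, but not with its other, at 0.53. The share over all 27025 genes in the table was 34.5%. The medians were 0.86 and 0.65, against 0.38 over all promoters, so both groups of members lay above it. Foxk2, at 60.8 TPM, and Foxn1, at 0.02 TPM, are printed as members far apart in both measures, with CG pairs in capitals. The Foxk2 stretch, chr11:121259737-121259986 on the plus strand, has 48 CG pairs and a ratio of 1.28. The Foxn1 stretch, chr11:78386609-78386858 on the minus strand, has 7 and a ratio of 0.28. They were chosen after their values were seen.
Foxk2: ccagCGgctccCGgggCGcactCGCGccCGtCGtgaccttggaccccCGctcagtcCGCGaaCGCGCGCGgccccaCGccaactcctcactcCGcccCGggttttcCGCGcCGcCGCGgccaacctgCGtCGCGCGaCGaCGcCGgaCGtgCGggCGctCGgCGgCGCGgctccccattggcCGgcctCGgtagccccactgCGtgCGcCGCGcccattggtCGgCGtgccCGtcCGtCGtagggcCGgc
Foxn1: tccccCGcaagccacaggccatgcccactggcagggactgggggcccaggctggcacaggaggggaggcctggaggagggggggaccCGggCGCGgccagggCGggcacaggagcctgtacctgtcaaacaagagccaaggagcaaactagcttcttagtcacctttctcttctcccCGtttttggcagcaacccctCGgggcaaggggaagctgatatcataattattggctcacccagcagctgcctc

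The forkhead core motif GTAAACA, searched on both strands, was in 1 of the 28 promoters (3.57%), beside 3.09% of all promoters. The CCAAT box, also on both strands and neither motif containing the other, was in 13 of 28 (46.4%), beside 34.5% of all. Both printed promoters hold CCAAT. A match is a description of the letters in this window and says nothing of binding.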

How the data were processed

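RNA-seq of 2 libraries of E14.5 whole brain was analysed as 1 group. Per the text notes deposited with the samples, reads were aligned to mm10 with the GENCODE M4 annotation. A quantification tool was not given in the sources used here. Expected counts (estimated fragments), TPM, posterior mean TPM and FPKM per gene and transcript were deposited by the authors, with the percent of each transcript within its gene. The authors also deposited counts of reads on mm9 splice junctions, summed over both libraries, and mm9 RPKM in 2 columns not tied to a library. TPM sums include spike-in and mitochondrial rows.

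Symbols, types and coordinates came from GENCODE vM21 by Ensembl identifier. The naming rule finds 44 genes, and 1 of them, with some list genes and sequences, is not reported here. Members and lists were chosen with earlier results of these data known. Full values are given for members at a mean of 10 TPM or more or called 2-fold apart, other members by value or range, and for each list the 3 highest and any called gene were eligible to be named. Log2 ratios used a pseudocount of 1. With 1 group of 2 libraries no p-value was computed. Expected counts were rounded for edgeR 4.0.16 (TMM) and DESeq2 1.42.0 (size factors), which served as scalings only. Python 3.11.15 with pandas 2.3.3 was used, and the ratio calls were tested on simulated data. Alternatives were other thresholds, pseudocounts, units and scalings, and each library alone. Intervals cover counting error only.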

Additional observations from a re-analysis of the deposited data

How the results depend on the processing

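The number of forkhead genes detected, 26 of 43, was 29 at 0.5 TPM, 16 at 5 TPM, 23 by FPKM and 14 at 1 RPKM or more in both mm9 columns; with 1 library left out it was 26 to 27. The number called 2-fold higher in replicate 2, 0, became 2 with a pseudocount of 0.1, and 5 with that pseudocount and no filter on low values, a setting chosen after seeing the data. The number called 2-fold lower, 1 (Foxm1), became 0 when TPM was rescaled without mitochondrial and spike-in rows. The median log2 ratio of the members, 0.28, was 0.15 with no filter on low values. The number of members whose leading transcript differed, 2, was 1 for genes whose mean reached 10 TPM, where fewer genes were tested. The share of the members' total in Foxp, 34.6%, was 33.5% to 35.7% with 1 library left out. Log2 ratios of single genes were followed under alternatives only for the 11 members that averaged at least 10 TPM. Of these 99 ratios, 98 kept their side of 2-fold, those not called moving by less than 0.25, and 1, Foxm1, did not. Lower members were left out of this count, and among them Foxb2 and Foxc2 became called with a pseudocount of 0.1. Foxd4, Foxi3 and Foxl2 were called too once the filter on low values was also dropped. No paired analysis was possible because there is 1 group. With 2 libraries, no difference between them can be set against a spread, and members with a few counts cannot be ordered.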
